A study of Mus musculus with 20 samples.

Results

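Ligands and receptors of the tumour necrosis factor (TNF) family were followed through 20 arrays of mouse pre-B cells, the B lineage precursors that rearrange their antibody genes. The set holds 10 genes of the 17944 that have a probe set of their own on the array: the ligands Ltb, Lta, Tnf and Tnfsf10, and the receptors Cd40, Tnfrsf13b, Tnfrsf13c, Tnfrsf19, Tnfrsf1b and Cd27. Every probe set annotated to exactly 1 of these symbols was taken, which gave 17 probe sets. The series title places gene activation by RAG-made DNA breaks at the centre of the study, and the comparisons ask how these genes differ with such breaks, without the kinase ATM and with NF-kB blocked.

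All lines were pre-B cells transformed by v-abl, and all were kept in 3 uM STI571, the v-abl kinase inhibitor imatinib, for 48 hours. The 5 groups were IkB-DN lines, which are Artemis-deficient and express a dominant negative IkB (n = 3), Artemis- and ATM-deficient lines (n = 2, each on 2 arrays), Artemis-deficient lines (n = 3), wild type lines (n = 3) and RAG-2-deficient lines (n = 3). Loss of Artemis leaves RAG-made breaks unjoined, loss of ATM removes the kinase that signals them, and a dominant negative IkB holds NF-kB inactive. RAG-2-deficient cells make no such breaks. The letters Bcl in the titles of these 3 lines are not explained in the labels, nor are the letters ATM in the title of the third wild type line, whose source is given as wild type. The separate marrow set held pre-B cells purified from bone marrow of Artemis-deficient mice (n = 2) and RAG-1-deficient mice (n = 2), all with an IgH transgene and with no drug treatment in the labels. The labels do not state the vector of the dominant negative IkB, the ages of the mice or the gates of the purification.

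TNF family ligands are made as trimers on the cell surface and bind receptors that recruit TRAF adaptors or, in death receptors, caspase-activating complexes. TRAF signalling frees NF-kB from its IkB inhibitors, and NF-kB in turn drives several genes of the family and of its own inhibitors. In B lineage cells the family is known for lymphoid organ formation through lymphotoxins, for survival through the receptors of BAFF, and for costimulation through CD40 and CD27.

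Stretches upstream of 4 genes are shown because the results turn on Ltb, Tnfsf10 and Tnfrsf19, and because Tnf is the neighbour of Ltb in the same gene cluster yet was hardly measured in these cells. Each stretch is the 250 bases before the gene start in RefSeq's GRCm38.p6 annotation, read 5′ to 3′ on the strand of the gene, and capitals mark a match to the degenerate 10-base NF-kB consensus (kB motif).
Ltb, chr17:35194257-35194506, plus strand: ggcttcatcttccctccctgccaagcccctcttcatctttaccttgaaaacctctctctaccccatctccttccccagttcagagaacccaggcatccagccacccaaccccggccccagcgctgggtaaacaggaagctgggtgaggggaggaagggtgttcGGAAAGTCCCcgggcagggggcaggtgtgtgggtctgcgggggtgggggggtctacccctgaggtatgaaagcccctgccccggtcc
Tnf, chr17:35202008-35202257, minus strand: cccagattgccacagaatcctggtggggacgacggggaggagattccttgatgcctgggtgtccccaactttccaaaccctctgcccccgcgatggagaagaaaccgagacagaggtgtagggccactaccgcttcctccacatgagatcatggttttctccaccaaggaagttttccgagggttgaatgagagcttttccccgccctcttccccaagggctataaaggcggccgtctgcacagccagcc
Tnfsf10, chr3:27316827-27317076, plus strand: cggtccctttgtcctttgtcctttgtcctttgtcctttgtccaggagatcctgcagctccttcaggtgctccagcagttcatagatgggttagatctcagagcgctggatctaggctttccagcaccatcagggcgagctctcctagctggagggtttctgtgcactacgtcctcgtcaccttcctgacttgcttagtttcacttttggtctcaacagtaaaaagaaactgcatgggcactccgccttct
Tnfrsf19, chr14:61046856-61047105, minus strand: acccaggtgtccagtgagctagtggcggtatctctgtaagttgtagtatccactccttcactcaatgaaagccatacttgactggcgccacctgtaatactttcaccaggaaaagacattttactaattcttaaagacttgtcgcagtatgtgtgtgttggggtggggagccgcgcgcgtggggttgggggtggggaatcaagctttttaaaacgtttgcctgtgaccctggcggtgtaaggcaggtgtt
The search covered both strands of windows that run from 250 bases before to 50 bases after each start. A match was found in 2779 of all 32851 windows (8.46%) and in 1 of the 10 windows that cover 9 of the genes, that of Ltb, where it begins at position -87 from the start. Tnfrsf19 has a further start with a window of its own. A match describes letters in a window and does not show that a factor binds there. Ltb, Tnf and Lta neighbour each other on chromosome 17.

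The deposited values are log10 signals, a base inferred from the values, and they are given below as signals. The medians of the arrays lay between 26.8 and 27.7 for lines and between 46.9 and 47.8 for marrow cells, so levels are compared only within each set. Levels are log2 of the signal plus a pseudocount (6 in the lines, 11 in the marrow cells), and differences are on that scale, which understates changes of dim genes. Of the 10 genes, 7 passed a filter in the lines that asks for 2 samples at or above the median of their own array, and Lta, Tnf and Cd27 did not. In the marrow cells 8 passed, and Lta and Tnf did not. Between the 3 IkB-DN samples the correlations across probe sets were 0.976 to 0.983, against 0.982 to 0.984 between technical arrays of the same line and 0.902 to 0.947 between samples of the other line groups. The sources used here do not say whether these 3 samples are separate lines. If they are cultures of 1 line, every p given for a comparison with them is too small. The line groups were fitted together, so the spread between these 3 samples also enters the p of every other line comparison. Those p values can then be too small as well, except where the compared groups were fitted alone. The values with the 3 averaged to 1 sample, a setting chosen after seeing the data, are therefore given for some results. These are the Ltb, Tnfsf10, Tnfrsf19 and Tnfrsf13c differences of the IkB-DN lines and the falls of Ltb and Tnfrsf19 in Artemis- and ATM-deficient lines. The other differences are given without them. Of the 12 pre-B cell markers with a probe set, 11 or 12 reached the array median in every array of every group. Atm signals on 1 of 2 probe sets were 29.7 to 49.6 in Artemis- and ATM-deficient lines, 164 to 169.95 in wild type lines, and 79.6 to 195 in the other lines, and 101 to 114 against 122 to 190.5 in all other lines on the other. Rag2 transcripts were measured in RAG-2-deficient lines (19.8 to 327) and Rag1 transcripts in RAG-1-deficient marrow cells (5356 to 6677), and the labels do not say which part of either gene was deleted, so these probe sets do not check the labels.

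Among the ligands, Ltb encodes lymphotoxin beta, which anchors lymphotoxin alpha at the cell surface. Its transcripts were high in the IkB-DN and the Artemis-deficient lines and low in the lines that lacked both Artemis and ATM. The signals were 714, 614 and 383 in the IkB-DN lines, 27.8 and 26.7 on the 2 arrays of the first Artemis- and ATM-deficient line, and 10.05 on 1 array of the second, whose other array had an empty cell. They were 463, 775 and 1205 in the Artemis-deficient lines, 108, 289 and 28.1 in wild type lines, and 235, 47.1 and 72.1 in RAG-2-deficient lines. Every Artemis-deficient and IkB-DN line lay above every line of the other 3 groups, and the wild type and RAG-2-deficient lines overlapped. The Artemis- and ATM-deficient lines lay below all others, the first of them only just below the third wild type line (log2 levels of 5.05 and 5.09). The share of all genes whose line groups do not overlap was not counted, so separations of line groups are given here and below as descriptions only. In these bulk samples, fewer cells with a transcript and less transcript per cell cannot be told apart.

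Ltb fell in the Artemis- and ATM-deficient lines relative to the Artemis-deficient lines, with levels of 4.53 ± 0.74 (SD, n = 2) against 9.58 ± 0.68 (SD, n = 3), a log2 difference of -5.05 ± 0.81 (SE, limma adjusted p = 0.0262). It was also higher in the IkB-DN lines, at 9.12 ± 0.46 (SD, n = 3), than in the Artemis- and ATM-deficient lines, by 4.59 ± 0.81 (adjusted p = 0.00991). The fall kept its call without the first Artemis-deficient line (adjusted p = 0.036) and lost it without the second (0.055), without the third (0.0792) and without either Artemis- and ATM-deficient line (0.0616 and 0.177). It also lost it in a fit of those groups alone (0.0541) and with the IkB-DN samples averaged (0.104). The difference between IkB-DN and Artemis- and ATM-deficient lines was not called without the second Artemis- and ATM-deficient line (0.0702) or with the IkB-DN samples averaged (0.268).

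Between the IkB-DN and the Artemis-deficient lines the Ltb difference was -0.45 ± 0.72 (adjusted p = 0.79), with a 95% interval of -2.03 to 1.13 (adjusted p = 0.992 with the IkB-DN samples averaged). Against the RAG-2-deficient lines, at 6.64 ± 1.13 (SD, n = 3), the Artemis-deficient lines differed by 2.93 ± 0.72 and missed the threshold (adjusted p = 0.0822). The IkB-DN lines differed from them by 2.48 ± 0.72 and missed it narrowly (adjusted p = 0.0506). That difference passed without the first RAG-2-deficient line (0.033), in a fit of those groups alone (0.0231) and after quantile normalization (0.0483). It did not pass in the other alternatives run, with 0.152 without the second RAG-2-deficient line and 0.46 with the IkB-DN samples averaged. The Artemis-deficient lines differed from the wild type lines by 2.86 ± 0.72 (adjusted p = 0.112). Without the second wild type line, the brightest of the 3, this difference was called (0.0442), and without the third, the one with the letters ATM in its title, it was 2.05 (0.183). Wild type and RAG-2-deficient lines differed by 0.07 ± 0.72 (adjusted p = 0.984).

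Tnfsf10 encodes TRAIL, a ligand that can trigger death receptors. Its brightest probe set gave 122, 137 and 115 in the IkB-DN lines. It gave 26.8 and 27.5 and then 30.2 and 31.0 in the Artemis- and ATM-deficient lines, 28.7, 31.0 and 25.8 in the Artemis-deficient lines, 19.3, 13.5 and 9.47 in wild type lines, and 16.4, 13.7 and 22.2 in RAG-2-deficient lines. The IkB-DN lines stood apart from all others, and the remaining groups were near or below the array median.

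Tnfsf10 rose in the IkB-DN lines relative to the Artemis-deficient lines, with levels of 7.03 ± 0.12 against 5.11 ± 0.11 (SD, n = 3 each), by 1.92 ± 0.21 (SE, limma adjusted p = 0.002). It rose by 1.91 ± 0.24 relative to the Artemis- and ATM-deficient lines (0.00227) and by 2.49 ± 0.21 relative to the RAG-2-deficient lines (8.96e-05). These 3 calls held without each sample in turn. With the IkB-DN samples averaged, the adjusted p was 0.298, 0.169 and 0.0367 in the same order, so that 1 call remained. A second probe set passed the filter through the 3 IkB-DN arrays alone and so had to differ: it gave 47.6, 67.7 and 67.0 in the IkB-DN lines, 0.792 to 24.9 in the Artemis- and ATM-deficient, Artemis-deficient and RAG-2-deficient lines, and empty cells on all 3 wild type arrays. The third probe set, which did not pass, was at 20.3 to 29.6 in the IkB-DN lines and at 6.81 or below wherever else it had a value.

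The smaller Tnfsf10 differences did not pass. The Artemis-deficient lines lay above the wild type lines by 0.81 ± 0.21 (adjusted p = 0.124) and above the RAG-2-deficient lines by 0.57 ± 0.21 (0.254). The groups did not overlap in either case, and the share of all genes without overlap was not counted in the lines. Artemis- and ATM-deficient lines differed from Artemis-deficient lines by 0.02 ± 0.24 (adjusted p = 0.992), with a 95% interval of -0.50 to 0.53. The summed signal of the 8 myeloid cell markers was higher in the IkB-DN lines than in the other lines, except the Artemis- and ATM-deficient lines, which overlapped them. It was 637 to 770.2 in the IkB-DN lines, 222 to 1165 in the Artemis- and ATM-deficient, 139 to 353 in the Artemis-deficient, 126 to 362 in the wild type and 104 to 169.9 in RAG-2-deficient lines. Of the 8 markers 4 reached the median in all IkB-DN arrays, while S100a8, S100a9, Mpo and Cd14 were at 5.72 or below there. Among those 4, Lyz2 was at 84.6 to 126 in the IkB-DN lines and at 24.0 or below in the other lines. Elane was at 31.3 to 55.9 in the IkB-DN lines and at 29.9 or below in the other lines. Csf1r was at 119 to 167 in the IkB-DN lines and reached 131 in wild type lines. Itgam was at 389 to 452 in the IkB-DN lines and at 124 to 1069 in the Artemis- and ATM-deficient lines. The part of these markers in the IkB-DN results was not tested.

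Lta and Tnf, which encode lymphotoxin alpha and TNF itself beside Ltb, were barely measured. Lta signals were 14.5, 14.7 and 9.01 in the IkB-DN lines. The other line groups had values of 0.504 to 7.33 on 5 arrays and empty cells on the remaining 8. No array reached its median for Lta, and the IkB-DN lines held the 3 highest values. Tnf cells were empty on 14 of 16 line arrays, with 2.24 in the second IkB-DN line and 0.599 in the second Artemis- and ATM-deficient line. No difference is given for either gene.

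**Figure D1:**
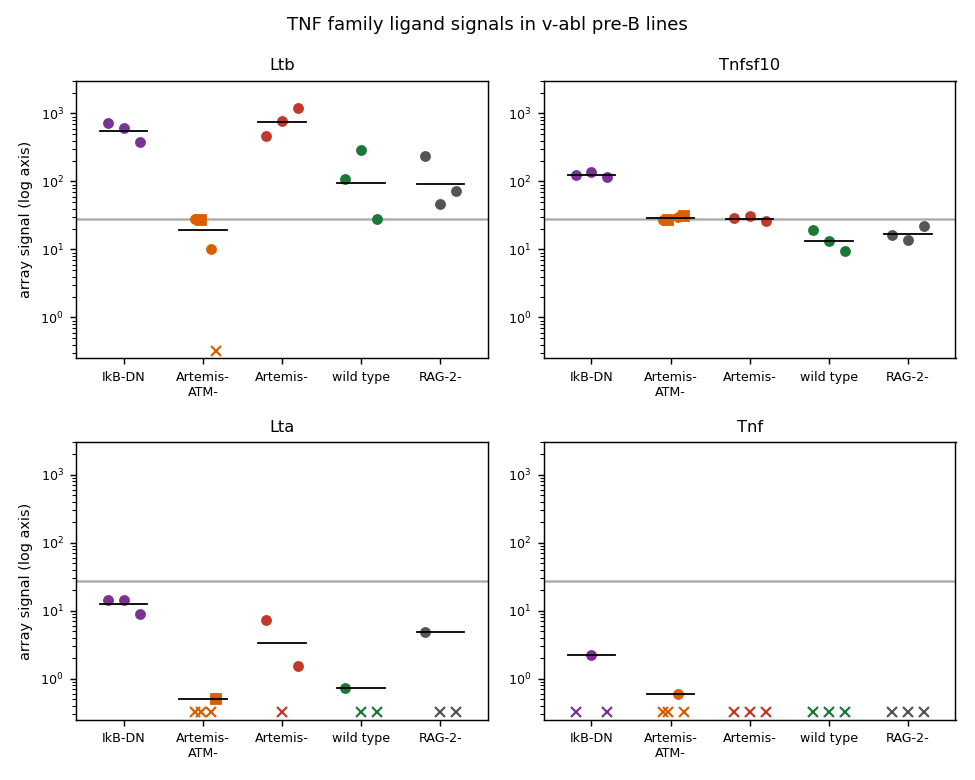
Signals of the 4 ligands on a log axis in the 5 groups of lines, 1 point per array, with squares for the second technical array, crosses for empty cells, bars for the mean of the log signals and a grey line for the range of the array medians. Ltb was lowest in the Artemis- and ATM-deficient lines (10.05 to 27.8), and Tnfsf10 was highest in the IkB-DN lines (115 to 137).

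Tnfrsf19, a receptor also called TROY that signals through TRAF adaptors, showed the widest separation of the receptors. Its brightest probe set gave 811, 770.3 and 804 in the IkB-DN lines, 73.4 and 58.1 and then 61.7 and 84.9 in the Artemis- and ATM-deficient lines, and 324, 329 and 210.1 in the Artemis-deficient lines. It gave 29.1, 23.2 and 59.6 in wild type lines and 414, 508 and 249.9 in RAG-2-deficient lines. The order was IkB-DN, then RAG-2-deficient and Artemis-deficient lines, which overlapped, then Artemis- and ATM-deficient lines and last wild type lines. The other 2 probe sets gave the same order of means, and on 1 of them the Artemis- and ATM-deficient lines overlapped the wild type lines. Single arrays of these groups overlapped on all 3 probe sets, while on the other 2 the lines, with technical arrays averaged, did not.

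Tnfrsf19 rose in the Artemis-deficient lines relative to the wild type lines, with levels of 8.17 ± 0.36 against 5.34 ± 0.61 (SD, n = 3 each), by 2.83 ± 0.31 (SE, limma adjusted p = 0.00275). It fell in the wild type lines relative to the RAG-2-deficient lines, at 8.57 ± 0.52 (SD, n = 3), with a log2 difference of -3.23 ± 0.31 (adjusted p = 0.000388). Both held without each sample in turn. Without the third wild type line the differences were 3.17 (adjusted p = 0.00146) and -3.57 (0.000105), and in fits of the compared groups alone neither was called (0.0932 and 0.0559). Between Artemis-deficient and RAG-2-deficient lines the difference was -0.40 ± 0.31 (adjusted p = 0.621), with a 95% interval of -1.07 to 0.27.

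Tnfrsf19 fell in the Artemis- and ATM-deficient lines, at 6.23 ± 0.10 (SD, n = 2), relative to the Artemis-deficient lines, with a log2 difference of -1.95 ± 0.34 (limma adjusted p = 0.0398). Relative to the RAG-2-deficient lines the difference was -2.35 ± 0.34 (0.00895). The first fall was called without the third Artemis-deficient line (0.045) and was lost without the first (0.0957), without the second (0.0933) and without either Artemis- and ATM-deficient line (0.157 and 0.171). The other was lost without either Artemis- and ATM-deficient line (0.0534 and 0.0735). In fits of the compared groups alone neither was called (0.137 and 0.0682), nor with the IkB-DN samples averaged (0.169 and 0.051).

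Tnfrsf19 rose in the IkB-DN lines, at 9.65 ± 0.04 (SD, n = 3), relative to the Artemis-deficient lines by 1.47 ± 0.31 (limma adjusted p = 0.0324). Relative to the Artemis- and ATM-deficient lines it rose by 3.42 ± 0.34 (0.00111), and relative to the RAG-2-deficient lines by 1.07 ± 0.31 (0.0468). The rise over the Artemis-deficient lines was lost without each IkB-DN sample (0.12, 0.118 and 0.101) and without each Artemis-deficient line (0.093, 0.0638 and 0.0516). That over the RAG-2-deficient lines was lost without each IkB-DN sample (0.126, 0.12 and 0.115), without the first and without the third RAG-2-deficient line (0.0858 and 0.147), with a pseudocount of 1 (0.0582) and without the filter (0.055). With the IkB-DN samples averaged none of the 3 rises was called (0.766, 0.106 and 0.462). The other 2 Tnfrsf19 probe sets were called as well in 4 of these 7 comparisons of lines, but not in the IkB-DN against the RAG-2-deficient lines (0.0595 and 0.129) or the Artemis- and ATM-deficient against the Artemis-deficient lines (0.178 and 0.0824). In the IkB-DN against the Artemis-deficient lines 1 of them was (0.0291 and 0.107).

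A summed signal of NK cell markers was also highest in the IkB-DN lines and next highest in RAG-2-deficient lines, but only Klrd1 followed that order. The summed signal of the 5 NK cell markers with a probe set was 432 to 613 in the IkB-DN lines, 7.05 to 17.0 in the Artemis- and ATM-deficient, 11.2 to 85.8 in the Artemis-deficient, 13.9 to 33.5 in the wild type and 181 to 273 in RAG-2-deficient lines. Nearly all of it was Klrd1, a receptor subunit of NK cells, at 419 to 599.7 in the IkB-DN and 163 to 253 in RAG-2-deficient lines. Nkg7 and Gzmb had no value in any IkB-DN array, and Ncr1 and Gzma were at 12.5 or below in those groups. The part of these markers in the Tnfrsf19 results was not tested.

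Cd40, the costimulatory receptor for CD40 ligand, was dim in the lines, and its brightest probe set passed the filter through 2 Artemis-deficient arrays alone. The signals were 15.6, 19.4 and 17.5 in the IkB-DN lines, 19.1 and 16.4 and then 9.25 and 11.7 in the Artemis- and ATM-deficient lines, and 32.9, 26.2 and 89.7 in the Artemis-deficient lines. They were 20.8, 15.2 and 13.4 in wild type lines and 13.2, 13.3 and 19.7 in RAG-2-deficient lines. On this probe set the Artemis-deficient lines lay above every other line, the third of them far above the rest, and the other 4 groups overlapped. No difference was called: the Artemis-deficient lines differed by 1.15 ± 0.36 from the wild type lines (limma adjusted p = 0.204) and by 1.22 ± 0.36 from the RAG-2-deficient lines (0.147). The IkB-DN lines differed from them by -1.07 ± 0.36 (0.142) and the Artemis- and ATM-deficient lines by -1.32 ± 0.41 (0.268). Of the other 2 Cd40 probe sets, neither of which passed the filter in the lines, 1 also had the Artemis-deficient lines above every other value. On the other, the first and second Artemis-deficient lines (18.1 and 8.86) lay below the first wild type line (22.7).

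Neither BAFF receptor gene was called in a line comparison. Tnfrsf13b encodes TACI, which binds BAFF and APRIL, and gave 387, 389 and 375 in the IkB-DN lines, 303 to 493 in the Artemis- and ATM-deficient lines, 249, 249 and 396 in the Artemis-deficient lines, 566, 557 and 276 in wild type lines, and 758, 399 and 338 in RAG-2-deficient lines. All neighbouring groups in the order of levels overlapped and no line comparison was called, with differences between -0.68 and 0.42. Tnfrsf13c encodes the BAFF receptor proper, a survival receptor of maturing B cells. It gave 15.2, 17.5 and 18.5 in the IkB-DN lines, 62.6 and 81.6 and then 15.0 and 23.4 in the Artemis- and ATM-deficient lines, 81.0, 43.7 and 145 in the Artemis-deficient lines, 167, 221 and 56.0 in wild type lines, and 219, 91.6 and 34.3 in RAG-2-deficient lines. The IkB-DN lines were the lowest group and lay below every Artemis-deficient, wild type and RAG-2-deficient line.

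The Tnfrsf13c difference of the IkB-DN lines was -1.92 ± 0.66 from the Artemis-deficient lines (limma adjusted p = 0.15) and -2.06 ± 0.66 from the RAG-2-deficient lines (0.0692), and neither was called. In fits of the compared groups alone both were (0.0412 and 0.0465), and the difference from the RAG-2-deficient lines was -2.69 without the third of those lines (0.0353) and -1.45 without the first (0.217). With the IkB-DN samples averaged the adjusted p was 0.898 and 0.518 in the same order. Tnfrsf1b, the TNF receptor that lacks a death domain, gave 55.2 to 64.4 in the IkB-DN lines, 36.8 to 63.6 in the Artemis- and ATM-deficient, 25.1 to 49.96 in the Artemis-deficient, 27.0 to 40.7 in the wild type and 29.6 to 61.8 in RAG-2-deficient lines. No comparison of it was called, and the difference of 0.60 ± 0.27 between IkB-DN and Artemis-deficient lines had an adjusted p of 0.261. Cd27, the costimulatory receptor for CD70, had empty cells on 9 of 16 line arrays and no signal above 5.84.

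**Figure D2:**
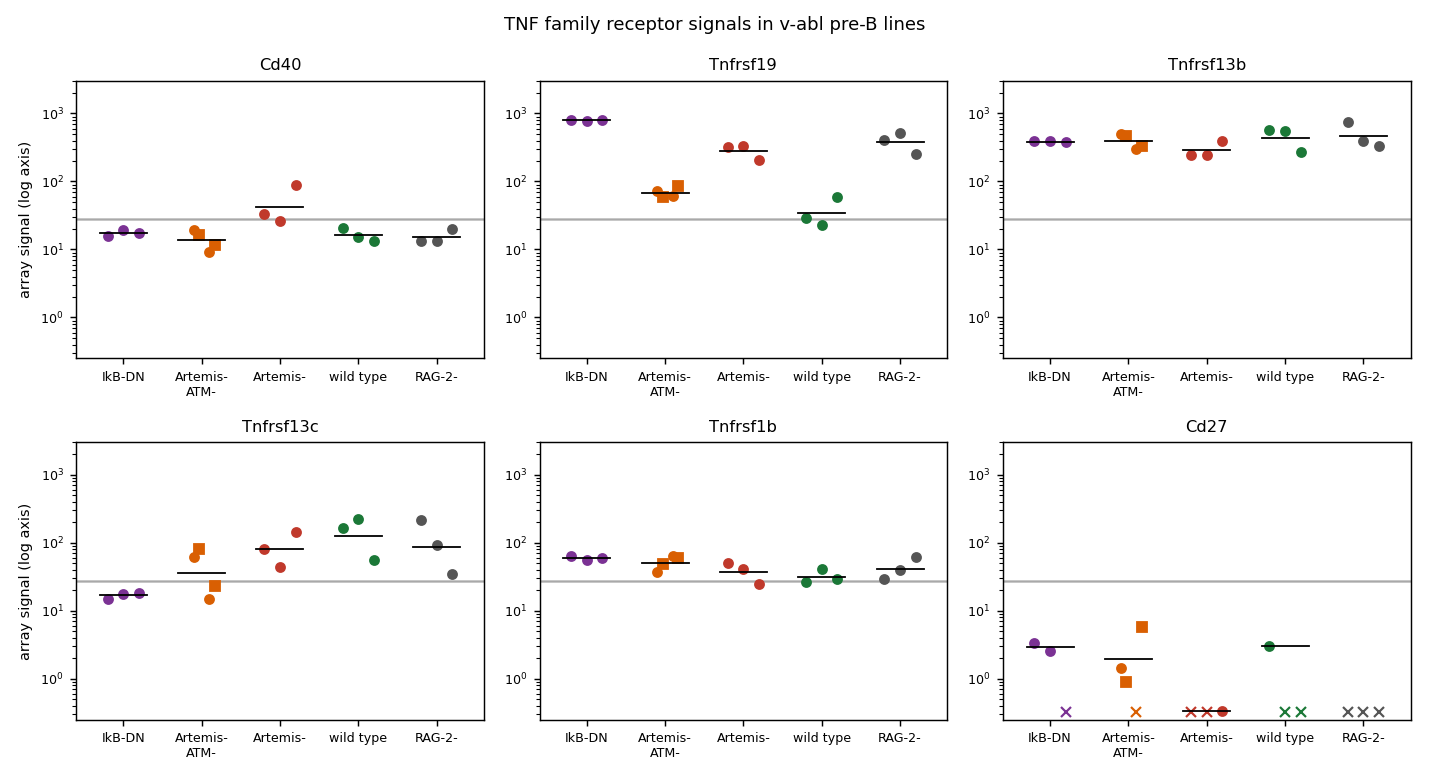
Signals of the 6 receptors on a log axis in the 5 groups of lines, drawn as for the ligands. Tnfrsf19 separated the groups most, with 770.3 to 811 in the IkB-DN lines and 23.2 to 59.6 in the wild type lines, while Tnfrsf13b overlapped between groups.

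Counted over the comparisons, calls rested on 3 of the 7 genes tested in the lines. In the comparison of IkB-DN with Artemis-deficient lines 2 of 7 genes rose (Tnfsf10 and Tnfrsf19) and none fell, where 1.27% of all genes tested rose and 1.09% fell. Artemis- and ATM-deficient against Artemis-deficient lines gave 2 falls (Ltb and Tnfrsf19) of 7 and no rise, where 0.245% of all genes fell and 0.0818% rose. IkB-DN against Artemis- and ATM-deficient lines, a comparison added after seeing the data, gave 3 rises (Ltb, Tnfsf10 and Tnfrsf19) of 7 and no fall, where 4.21% of all genes rose and 2.79% fell. Artemis-deficient against wild type lines gave 1 rise (Tnfrsf19) of 7 and no fall, where 0.356% of all genes rose and 0.224% fell.

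The 4 comparisons with the RAG-2-deficient lines share those 3 lines, as the comparisons above share the Artemis-deficient lines, so their values are not independent. IkB-DN against RAG-2-deficient lines gave 2 rises (Tnfsf10 and Tnfrsf19) of 7 and no fall, where 5.87% of all genes rose and 4.58% fell. Artemis- and ATM-deficient lines gave 1 fall (Tnfrsf19) of 7 and no rise, where 0.328% of all genes fell and 0.338% rose. Wild type lines gave 1 fall (Tnfrsf19) of 7 and no rise, where 0.276% of all genes fell and 0.470% rose. Artemis-deficient lines gave no call among the 7, where 0.776% of all genes rose and 0.327% fell, although 3 of the 7 had an unadjusted p below 0.05 in limma. Counts of 1 or 2 genes of 7 are few, and the genes were chosen with earlier results of these data known.

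**Figure D3:**
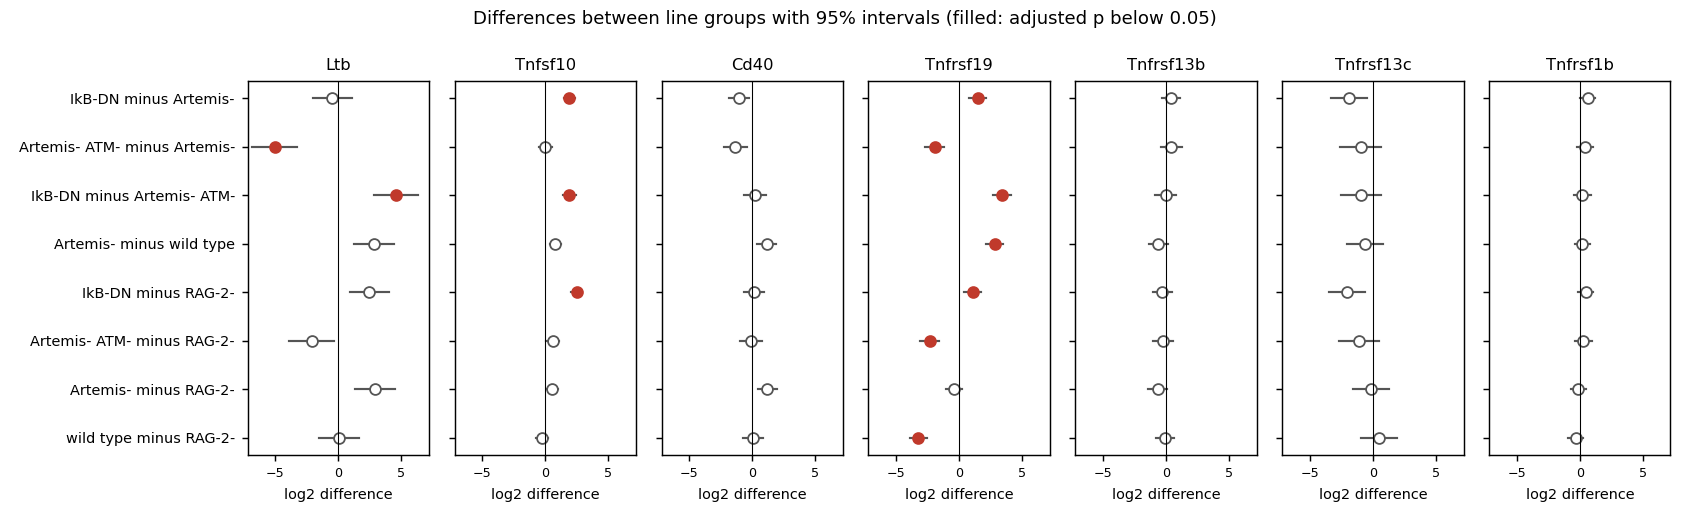
Log2 differences between groups of lines for the 7 genes that passed the filter, with 95% intervals and filled points where the adjusted p was below 0.05; each row names the group on top of the difference first. Tnfrsf19 was called in all rows but Artemis-deficient minus RAG-2-deficient, Ltb in those of Artemis- and ATM-deficient lines against Artemis-deficient lines (-5.05) and of IkB-DN lines against Artemis- and ATM-deficient lines (4.59).

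In the marrow cells Cd40 and Tnfrsf13b were called higher in the Artemis-deficient cells, 2 of the 8 genes tested, and none was called lower, where 1.83% of all genes rose and 0.766% fell. Nothing is read from that count. Cd40 gave 161 and 142 in Artemis-deficient cells, against 31.1 and 40.3 in RAG-1-deficient cells, and only the Artemis-deficient arrays reached the filter, which therefore kept this probe set for being high in that group. Tnfrsf13b gave 1462 and 1609.9 in Artemis-deficient cells, against 864 and 888 in RAG-1-deficient cells. The groups did not overlap for either gene, a separation shared by 50.7% of all genes with 2 samples on each side.

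Cd40 levels were 7.34 ± 0.12 in Artemis-deficient and 5.54 ± 0.20 in RAG-1-deficient cells (SD, n = 2 each), a difference of 1.80 ± 0.26 (SE, limma adjusted p = 0.0267, and 0.0121 in a fit of all probe sets without the filter). The other 2 Cd40 probe sets differed by 1.51 ± 0.30 (0.0488) and 2.16 ± 0.45 (0.0582). The one with the larger difference also passed the filter through the Artemis-deficient arrays alone, so it adds no support. On the one with the smaller difference 1 RAG-1-deficient array (48.0) reached its median as well. The filter asks for 2 samples, so this probe set too passed only with the help of Artemis-deficient arrays and adds no support. Tnfrsf13b levels were 10.59 ± 0.10 and 9.79 ± 0.03 in the same order, a difference of 0.80 ± 0.16 (adjusted p = 0.048), which was not called with a pseudocount of 1 (0.0522). Without the first or the second RAG-1-deficient sample neither gene was called (0.209 and 0.101 for Cd40, 0.298 and 0.211 for Tnfrsf13b), and Tnfrsf13b was not called without the second Artemis-deficient sample (0.0606). A group left with 1 sample was assumed to vary like the other.

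Ltb gave 482 and 461 in Artemis-deficient cells, against 121 and 414 in RAG-1-deficient cells, a difference of 1.03 ± 0.47 that was not called (limma adjusted p = 0.33). The brightest Tnfrsf19 probe set gave 119 and 138 in Artemis-deficient cells, against 363 and 244 in RAG-1-deficient cells. That difference of -1.15 ± 0.25 missed the threshold (0.0609) and passed it without the filter (0.0363) and without either Artemis-deficient sample (0.0394 and 0.0206). Without the first or the second RAG-1-deficient sample it did not (-0.87 with 0.44, and -1.43 with 0.139). The other 2 Tnfrsf19 probe sets, below the median on all 4 marrow arrays, did not pass the filter. In a fit without the filter they differed by -0.28 ± 0.37 (limma adjusted p = 0.823) and -0.54 ± 0.39 (0.626). Artemis-deficient cells lay below the RAG-1-deficient ones for Tnfrsf19 and above them for Ltb, with no overlap in either case. With 2 samples on each side 50.7% of all genes did not overlap, so nothing is read from these separations.

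The remaining genes were not called in the marrow cells, and their groups overlapped. Tnfsf10 gave 34.9 and 65.2 in Artemis-deficient cells, against 58.2 and 29.9 in RAG-1-deficient cells, and Tnfrsf13c gave 626 and 365 against 331 and 632. Tnfrsf1b gave 175 and 219 in Artemis-deficient cells, against 131 and 176 in RAG-1-deficient cells. Cd27, nearly absent from the lines, gave 129.9 and 85.9 in Artemis-deficient cells, against 81.2 and 124 in RAG-1-deficient cells (0.07 ± 0.30, limma adjusted p = 0.94). Tnf had values in the Artemis-deficient cells alone (2.80 and 25.4), and Lta in 1 of them (10.5).

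The marrow cells were not free of other cell types by their markers, and several lists moved with the groups. Summed signals of 8 myeloid markers were 45675 to 52099 in Artemis-deficient cells, against 27523 to 39540.3 in RAG-1-deficient cells, and those of 5 dendritic cell markers were 5678 to 7297 against 1047 to 2128. The 5 NK cell markers summed to 12921 to 13153 in Artemis-deficient cells, against 8071 to 10723 in RAG-1-deficient cells, and 6 T cell markers to 648 to 1332 against 169 to 191. Most of the T cell sum was Cd4 (392.2 to 1113 in Artemis-deficient cells, with no value in RAG-1-deficient cells). Cd3d (97.2 to 137 against 56.6 to 77.1) and Cd3g (44.1 to 57.3 against 33.1 to 37.8) were also higher in Artemis-deficient cells. Cd8a, Cd3e and Trat1 overlapped between the groups. The sum of the 12 pre-B cell markers with a probe set ran the other way, at 15866 to 23345 in Artemis-deficient cells, against 33975 to 37912 in RAG-1-deficient cells. So did the sum of 5 mature B cell markers (667 to 685 against 942 to 1269.5) and that of 3 erythroid markers (575 to 887 against 1254 to 1299). The sum of 4 plasma cell markers did as well (1534 to 1977 against 2867 to 2903), although Jchain among them was higher in Artemis-deficient cells (43.8 to 49.0 against 7.73 to 22.5). The pre-B cell sum includes Rag1 (1232 to 1795 against 5356 to 6677), the gene that is deficient in 1 of the groups. Of the pre-B cell markers Dntt alone was higher in Artemis-deficient cells (733 to 874, against 284 to 478 in RAG-1-deficient cells). Among the mature B cell markers Cd22 (374 to 475 against 787 to 796) carried most of the sum, Ms4a1 overlapped and Ciita went the other way (73.1 to 106 in Artemis-deficient cells, against 26.0 to 48.1 in RAG-1-deficient cells). Dendritic cells, macrophages and mature B cells are known to express Cd40. The part of these markers in the Cd40 and Tnfrsf13b results was not tested.

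**Figure D4:**
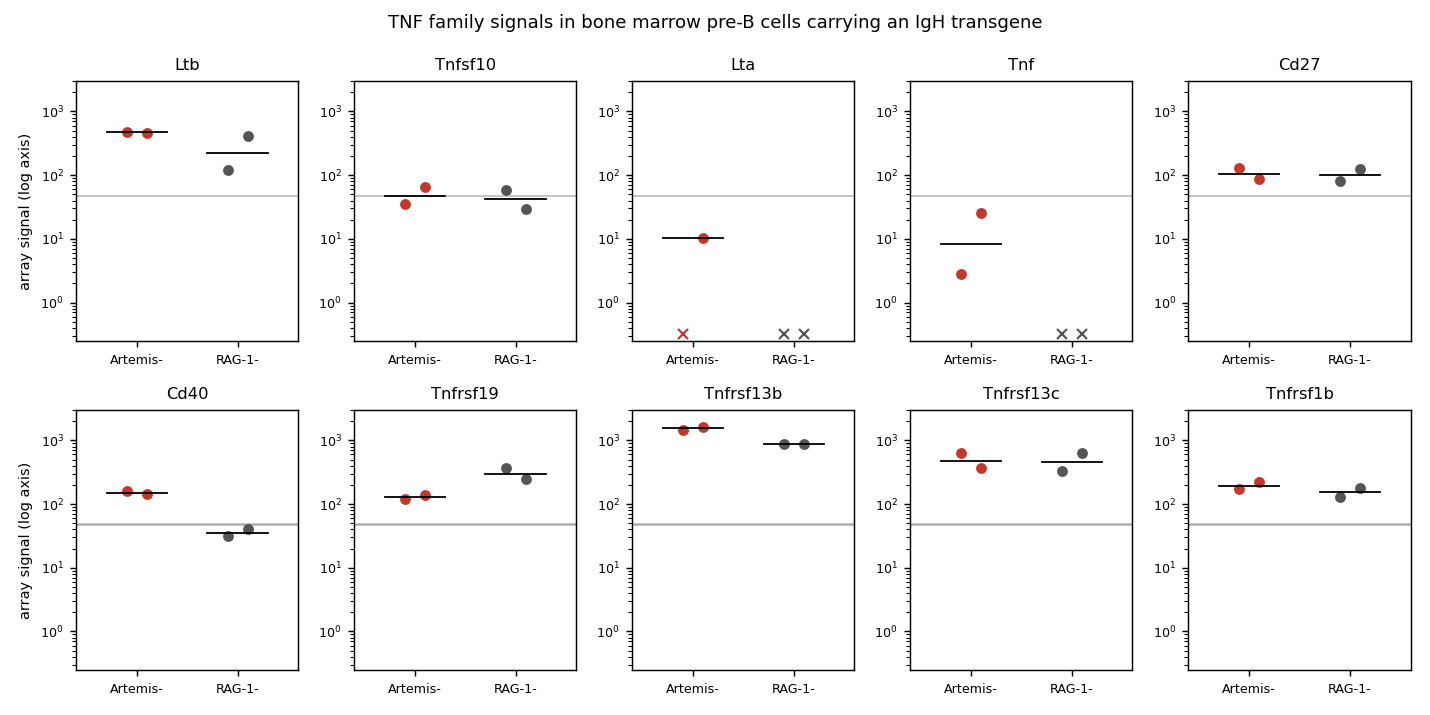
Signals of all 10 genes on a log axis in the marrow cells, 1 point per array, with crosses for empty cells, bars for the mean of the log signals and a grey line for the range of the array medians. Cd40 lay at 142 to 161 in Artemis-deficient cells and 31.1 to 40.3 in RAG-1-deficient cells, and Tnfrsf19 at 119 to 138 and 244 to 363.

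The rest of the family was mostly dim. Of 36 other TNF superfamily genes 30 have a probe set, 10 ligands and 20 receptors, and 2 or 3 ligands and 6 to 8 receptors were tested in each comparison. Limma called none of them in any of the 9 comparisons, and between 0 and 3 per comparison and list had an unadjusted p below 0.05. Genes of TNF receptor signalling, of which 24 of 28 have a probe set, were mostly expressed, and 23 were tested in the lines. The median difference of these genes was 0.15 in Artemis-deficient against RAG-2-deficient lines and -0.20 in IkB-DN against Artemis-deficient lines, against -0.00164 and 0.00593 over all genes.

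In Artemis-deficient against RAG-2-deficient lines 4 of the 23 signalling genes rose and none fell, led by the NF-kB inhibitor Nfkbie (2.04 ± 0.17, limma adjusted p = 0.000115). The others were Tnfaip3, the ubiquitin editor that dampens TNF signalling (1.67), and the NF-kB subunits Relb (1.10) and Nfkb2 (0.78). Nfkbie also rose in the wild type against the RAG-2-deficient lines (0.96) and in the Artemis-deficient against the wild type lines (1.08), the only calls on the list in those comparisons. In the Artemis- and ATM-deficient against the Artemis-deficient lines 2 genes fell, Nfkbie (-2.15 ± 0.19, adjusted p = 0.000352) and Relb (-2.04), and none was called against the RAG-2-deficient lines, where 2 had an unadjusted p below 0.05.

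In the IkB-DN lines 6 signalling genes fell relative to the Artemis-deficient lines. They were Relb (-2.55 ± 0.18, limma adjusted p = 0.00012), Nfkbie (-2.22 ± 0.17, 0.00012), Nfkbia (-1.17), the TRAF-bound ubiquitin ligase Birc3 (-1.14), the deubiquitinase Cyld (-0.87) and Nfkb2 (-0.82), while Casp8, the initiator caspase of death receptors, rose (1.14). Ltb, with a difference of -0.45 ± 0.72 in the same comparison, was not called, and its interval of -2.03 to 1.13 includes several of these values. Against the RAG-2-deficient lines 3 fell in the IkB-DN lines (Relb -1.45, Cyld -0.78 and Nfkbib -0.60) and Casp8 (1.22) and Tnfaip3 (1.03) rose. Against the Artemis- and ATM-deficient lines Casp8 alone was called (1.12). With the IkB-DN samples averaged 5 probe sets of the whole array were called between IkB-DN and Artemis-deficient lines, and the list was not counted again under that setting. In the marrow cells Nfkbie (1.64 ± 0.27, 0.0346) and Tnfaip3 (1.20 ± 0.19, 0.0293) rose in Artemis-deficient cells, 2 of 24 tested.

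Across the 14 line samples, which fall into the 5 groups, the levels most like each called gene were described by Pearson's r over 9436 genes with a value in every sample. For Ltb these were Slc2a6 (0.922), Ensa (0.916), Atp10d (0.885), Irak2 (0.882) and Shisa5 (0.861), and for Tnfsf10 they were Cdr2 (0.951), Sh3bp5 (0.938), Gprin3 (0.924), Gria2 (0.919) and Sirt3 (0.919). For Tnfrsf19 they were Thap6 (0.927), Nrros (0.872), Igfbp4 (0.871), 1700029J07Rik (0.861) and BC035044 (0.854). Among the genes of the set the strongest relations were between Tnfrsf13c and Tnfrsf1b (-0.807) and between Tnfrsf13c and Tnfsf10 (-0.739), and Ltb had r of 0.603 with Cd40, 0.506 with Tnfrsf19 and 0.483 with Tnfsf10. The samples share groups and are few, so these values describe the samples at hand.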

How the data were processed

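Per the labels, RNA was hybridised to Affymetrix mouse GeneChip arrays, 20 in all, read with the maker's GeneChip Operating Software. The authors deposited log10 signals of 44200 probe sets, with 14.7% of cells empty, and no label names the base. How signals were summarised, corrected for background and scaled is stated neither in the labels nor in the file header. Values were returned to signals and taken to log2 after a pseudocount, the 25th percentile of the set (6 in lines, 11 in marrow). Technical arrays of a line were averaged. Of the probe sets, 34294 named 1 gene, 916 several and 8990 none. A gene was represented by its probe set with the highest mean level.

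The test was limma's two-sided moderated test (version 3.58.1, R 4.3.3, with lmFit and a mean trend in eBayes), with Benjamini-Hochberg adjustment over all probe sets of a comparison, called below 0.05. Degrees of freedom were 9 residual and 3.06 prior for the 5 line groups, fitted together, and 2 and 5.4 for marrow cells, fitted apart. A comparison needed at least 2 values in each group. The steps were tested on simulated data, in which the share of false calls was above the threshold for the marrow comparison and below it for the line comparison simulated. Figures used matplotlib 3.10.9 in Python 3.11.15. Arrays have no read depth, and their number limits the precision. The labels do not say that replicates came from separate cultures or animals, so p values measure only the spread between these samples, which may be technical.

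The genes and gene lists were chosen with earlier results of these data known. All 10 genes are named. From the lists up to 6 called genes per comparison with the largest difference are named, and for each gene called in a line comparison the 5 most correlated genes. Alternatives were a pseudocount of 1, no filter, quantile normalization, first technical arrays alone, compared groups alone and each replicate left out. Empty cells set to 0, the IkB-DN samples averaged and the comparison of IkB-DN with Artemis- and ATM-deficient lines were added after seeing the data.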

Additional observations from a re-analysis of the deposited data

How the results depend on the processing

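No paired analysis was possible because the labels give the groups no shared replicate numbers. None of the called differences changed sign under the alternatives run. Of 424 gene differences under alternatives other than leaving out a sample, 402 kept their side of the threshold and 0 changed sign. Of 347 with a sample left out 315 kept their side and 28 changed sign, none of them called, among them Ltb in wild type against RAG-2-deficient lines (-0.68 to 0.88), Tnfrsf13c in Artemis-deficient against RAG-2-deficient lines (-0.77 to 0.47) and Tnfsf10 in the marrow cells (-0.23 to 0.53). These alternatives moved counts of called probe sets or genes by over 1.5 times. The fit of the compared groups alone called 103 probe sets in place of 249 in Artemis-deficient against RAG-2-deficient lines, 29 in place of 172 in wild type against RAG-2-deficient lines, 76 in place of 150 in Artemis- and ATM-deficient against RAG-2-deficient lines, 6 in place of 110 in Artemis-deficient against wild type lines, 22 in place of 61 in Artemis- and ATM-deficient against Artemis-deficient lines, 821 in place of 439 in IkB-DN against Artemis-deficient lines and 3156 in place of 1431 in IkB-DN against Artemis- and ATM-deficient lines. It called 4 of the family's genes in IkB-DN against RAG-2-deficient lines and 0 in wild type and in Artemis- and ATM-deficient against RAG-2-deficient lines, in Artemis-deficient against wild type lines and in Artemis- and ATM-deficient against Artemis-deficient lines. With the IkB-DN samples averaged the counts of probe sets were 83, 42, 45, 13, 24, 5 and 4 in the same order and 24 in place of 2134 in IkB-DN against RAG-2-deficient lines, where 1 of the family's genes was called, and 0 were called in the 3 comparisons with Artemis- and ATM-deficient lines and in IkB-DN against Artemis-deficient lines. The cause was not tested, but averaging leaves fewer samples. A pseudocount of 1 left 1 gene called in IkB-DN against RAG-2-deficient lines and 1 in the marrow cells. No filter left 1 in IkB-DN against RAG-2-deficient lines and called 758 probe sets in place of 489 in the marrow cells. Leaving out 1 sample at a time gave 92 to 201 probe sets (0 to 0 genes of the family) in Artemis-deficient against RAG-2-deficient lines, 69 to 305 (1 to 1) in wild type against RAG-2-deficient lines, 46 to 133 (0 to 1) in Artemis- and ATM-deficient against RAG-2-deficient lines and 837 to 1445 (1 to 2) in IkB-DN against RAG-2-deficient lines. It gave 45 to 181 (1 to 2) in Artemis-deficient against wild type lines, 29 to 66 (0 to 1) in Artemis- and ATM-deficient against Artemis-deficient lines, 59 to 1064 (1 to 1) in IkB-DN against Artemis-deficient lines, 339 to 664 (2 to 3) in IkB-DN against Artemis- and ATM-deficient lines and 0 to 1380 (0 to 3) in the marrow cells.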
